A study of Rattus norvegicus and Mus musculus with 34 samples.

Results

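Transcripts of 10 neutrophil genes were followed in tissue that filled a healing bone defect of the rat jaw. The genes were taken by symbol from the 20022 genes of the deposited rat tables, and all 10 were listed there. Mpo and Elane are azurophil granule genes, and Ltf, Camp and Ngp are specific granule genes. Mmp8, which encodes neutrophil collagenase, is given apart from these. The others are the calprotectin genes S100a8 and S100a9 and the receptor genes Csf3r and Cxcr2.

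The tissue came from wild-type (WT) Sprague-Dawley rats, and every rat received a periodontal bone defect in the mandible. In the sensory nerve+ groups the inferior alveolar nerve, which supplies sensation to the mandible, was left intact, and in the sensory nerve− groups a segment of it was removed. Tissue was taken at days 3, 7 and 14 from 23 different rats, 4 per group, except for 3 in the sensory nerve+ group of day 3. No rat without a defect entered the comparisons, so every contrast is between healing tissues.

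Neutrophils are built in the bone marrow and fill their granules in a fixed order. Promyelocytes make the azurophil (primary) granules, myelocytes and metamyelocytes make the specific (secondary) granules, and gelatinase granules follow. A neutrophil that leaves the marrow has largely stopped transcribing the early granule genes and carries the transcripts of its surface receptors, so early granule transcripts are usually read as a mark of marrow precursors. The factors C/EBP and PU.1 are known to drive granulocyte genes.

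The stretches before the start sites of 4 genes are shown because they stand for the poles of the contrast followed here, the early granule genes Mpo and Ngp and the receptor genes Csf3r and Cxcr2. The sequences are RefSeq's, from the assembly GRCr8, which is not the assembly the reads were aligned to. They are the 250 bases before each start site, read 5′ to 3′ on the gene's strand, and capitals mark matches on either strand to TTNNGNAA, a C/EBP type motif, or to GAGGAA, a core that PU.1 and other ETS factors share.
Mpo, chr10:73092152-73092401, plus strand: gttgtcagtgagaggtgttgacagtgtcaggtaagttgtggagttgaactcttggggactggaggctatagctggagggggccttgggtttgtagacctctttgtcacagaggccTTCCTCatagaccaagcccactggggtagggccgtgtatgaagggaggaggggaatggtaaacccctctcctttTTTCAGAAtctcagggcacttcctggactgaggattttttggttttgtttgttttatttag
Ngp, chr8:119272355-119272604, plus strand: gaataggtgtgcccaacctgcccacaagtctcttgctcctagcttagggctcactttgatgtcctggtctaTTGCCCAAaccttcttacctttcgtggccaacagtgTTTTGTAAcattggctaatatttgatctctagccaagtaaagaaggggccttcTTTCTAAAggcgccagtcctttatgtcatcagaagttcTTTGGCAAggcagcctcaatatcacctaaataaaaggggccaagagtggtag
Csf3r, chr5:143582970-143583219, plus strand: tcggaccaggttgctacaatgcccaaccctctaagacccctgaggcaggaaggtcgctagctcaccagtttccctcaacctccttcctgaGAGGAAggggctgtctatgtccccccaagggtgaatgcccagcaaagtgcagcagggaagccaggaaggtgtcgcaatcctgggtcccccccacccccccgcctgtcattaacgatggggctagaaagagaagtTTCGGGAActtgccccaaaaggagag
Cxcr2, chr9:83178395-83178644, plus strand: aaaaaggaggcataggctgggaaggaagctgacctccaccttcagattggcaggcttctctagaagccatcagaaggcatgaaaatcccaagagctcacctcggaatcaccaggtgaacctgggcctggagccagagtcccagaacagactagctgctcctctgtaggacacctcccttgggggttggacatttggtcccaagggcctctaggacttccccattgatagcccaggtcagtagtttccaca
The Ngp window held 4 matches to TTNNGNAA, which began 179, 143, 90 and 52 bases before the start. The Mpo window held 1 match to TTNNGNAA at 61 bases and 1 to GAGGAA at 135 bases, and the Csf3r window held 1 match to each, at 26 and 160 bases. The Cxcr2 window held no match to either motif. The table held windows for 8 of the 10 genes, and of these 5 matched TTNNGNAA and 3 matched GAGGAA, against 37.2% and 23.3% of all 33469 windows. No match of one motif overlapped a match of the other in the windows shown. These matches describe letters only, and binding was not measured here.

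Libraries held 14854598 to 18742423 counts, so that 3 counts, the floor up to which a value was not read as expression, correspond to 0.16 to 0.202 CPM before TMM scaling. Levels are given as CPM, counts scaled to library size and then by TMM, and are compared between rats and not between genes. The tissue was a mixture: bone and ligament stroma markers held 1.32% to 8.51% of each library, erythroid markers 0.263% to 50.3% and skeletal muscle markers 0.00153% to 3.07%. In such bulk tissue, fewer cells of a type and less RNA per cell cannot be told apart. The sensory nerve− rats of day 7 were listed in a table of their own, and at day 7 a difference between tables cannot be told apart from transection.

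Mpo encodes myeloperoxidase, the peroxidase of the azurophil granule. Its level in sensory nerve+ rats was 0.131, 3.09 and 7.08 CPM at day 3, then 0.098, 0.364, 0.0855 and 8.22 CPM at day 7, then 3.88, 541, 0.517 and 53.1 CPM at day 14. After transection it was 36.8, 0.522, 0 and 2.57 CPM at day 3, then 0, 2.38, 0.342 and 1.03 CPM at day 7, then 9.82, 17.7, 2.43 and 3.89 CPM at day 14. A single rat stood far above the rest of its group in 3 of the 6 groups: rat 4 of sensory nerve+ day 7, rat 2 of sensory nerve+ day 14 and rat 1 of sensory nerve− day 3. In 5 of 23 rats Mpo was at or under 3 counts. Elane, neutrophil elastase of the same granule, ranged from 0 to 131 CPM with a median of 0.656 CPM, was at or under the floor in 6 rats, and was highest in the same rat as Mpo.

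Among the specific granule genes, Ngp, a cathelicidin-related granule protein, was 0.981, 0.428 and 7.45 CPM at day 3, then 0.245, 4.63, 0.556 and 38.0 CPM at day 7, then 11.9, 819, 3.96 and 60.9 CPM at day 14 in sensory nerve+ rats. After transection Ngp was 100.5, 1.95, 0.0466 and 2.09 CPM at day 3, then 0.281, 6.83, 2.20 and 3.73 CPM at day 7, then 52.3, 4.96, 13.8 and 29.1 CPM at day 14. The same 3 rats stood highest in their groups for Ngp as for Mpo. Camp, the cathelicidin precursor, ranged from 0.112 to 483 CPM with a median of 2.94 CPM and was also highest in rat 2 of sensory nerve+ day 14. The count ratio of Ngp to Camp lay between 0.333 and 3.18, with a median of 2.0, in the 21 rats with over 3 counts of both.

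Ltf, which encodes lactoferrin and is a standard specific granule gene, stayed near the floor throughout. It reached at most 6.77 counts in any rat, was at or under 3 counts in 19 of 23 rats, and passed the filter on low counts in none of the comparisons. It was therefore not tested. Whether the gene model of Ltf in the annotation captured its reads was not tested. Rat 2 of sensory nerve+ day 14, with 16361 counts of Ngp and 9648 of Camp, had Ltf at 0.1 CPM.

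Mmp8, neutrophil collagenase, was 9.94, 8.28 and 6.06 CPM at day 3, then 0.686, 4.58, 1.15 and 26.1 CPM at day 7, then 15.6, 266, 5.51 and 97.0 CPM at day 14 in sensory nerve+ rats. Sensory nerve− rats held Mmp8 at 45.4, 3.89, 1.86 and 6.64 CPM at day 3, then 1.57, 17.2, 1.12 and 7.71 CPM at day 7, then 38.6, 4.57, 40.6 and 313 CPM at day 14. Unlike the early granule genes, Mmp8 was highest in rat 4 of sensory nerve− day 14.

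S100a9 encodes a subunit of calprotectin, the abundant calcium-binding complex of the neutrophil cytosol. With the nerve intact it was 118, 75.4 and 85.1 CPM at day 3, then 3.97, 46.65, 5.34 and 253 CPM at day 7, then 182, 2949, 39.9 and 823.5 CPM at day 14. With the nerve transected it was 429, 16.0, 18.3 and 64.5 CPM at day 3, then 17.0, 146, 8.30 and 71.3 CPM at day 7, then 512, 53.0, 344 and 2475 CPM at day 14. The day 14 levels of rat 2 of sensory nerve+ and rat 4 of sensory nerve− stood above all other rats. S100a8, the partner subunit, ranged from 1.32 to 1683 CPM and moved with S100a9: their count ratio stayed between 1.53 and 3.58 in all 23 rats, a 2.34-fold range, while the level of S100a9 spanned 3.97 to 2949 CPM.

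Cxcr2, the receptor through which neutrophils follow CXC chemokines, was 13.3, 6.47 and 2.57 CPM at day 3, then 0.343, 3.90, 0.342 and 12.1 CPM at day 7, then 18.6, 51.0, 3.68 and 41.2 CPM at day 14 in sensory nerve+ rats. Sensory nerve− rats held Cxcr2 at 7.25, 2.14, 2.56 and 4.28 CPM at day 3, then 1.80, 8.34, 0.586 and 7.52 CPM at day 7, then 37.7, 4.17, 31.7 and 169 CPM at day 14. Every rat had over 3 counts of Cxcr2, and in both nerve states the day 14 group held the highest level but overlapped with the earlier days. Csf3r, the receptor of the growth factor G-CSF, was 137, 70.9 and 35.4 CPM at day 3, then 10.0, 32.2, 4.92 and 93.0 CPM at day 7, then 104, 289.5, 19.0 and 254 CPM at day 14 in sensory nerve+ rats. Sensory nerve− rats held Csf3r at 45.2, 31.5, 32.4 and 82.6 CPM at day 3, then 19.6, 83.7, 13.5 and 68.6 CPM at day 7, then 248, 40.75, 167 and 957 CPM at day 14. Rat 4 of sensory nerve− day 14 was the highest of all 23 rats for both receptors.

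**Figure D1:**
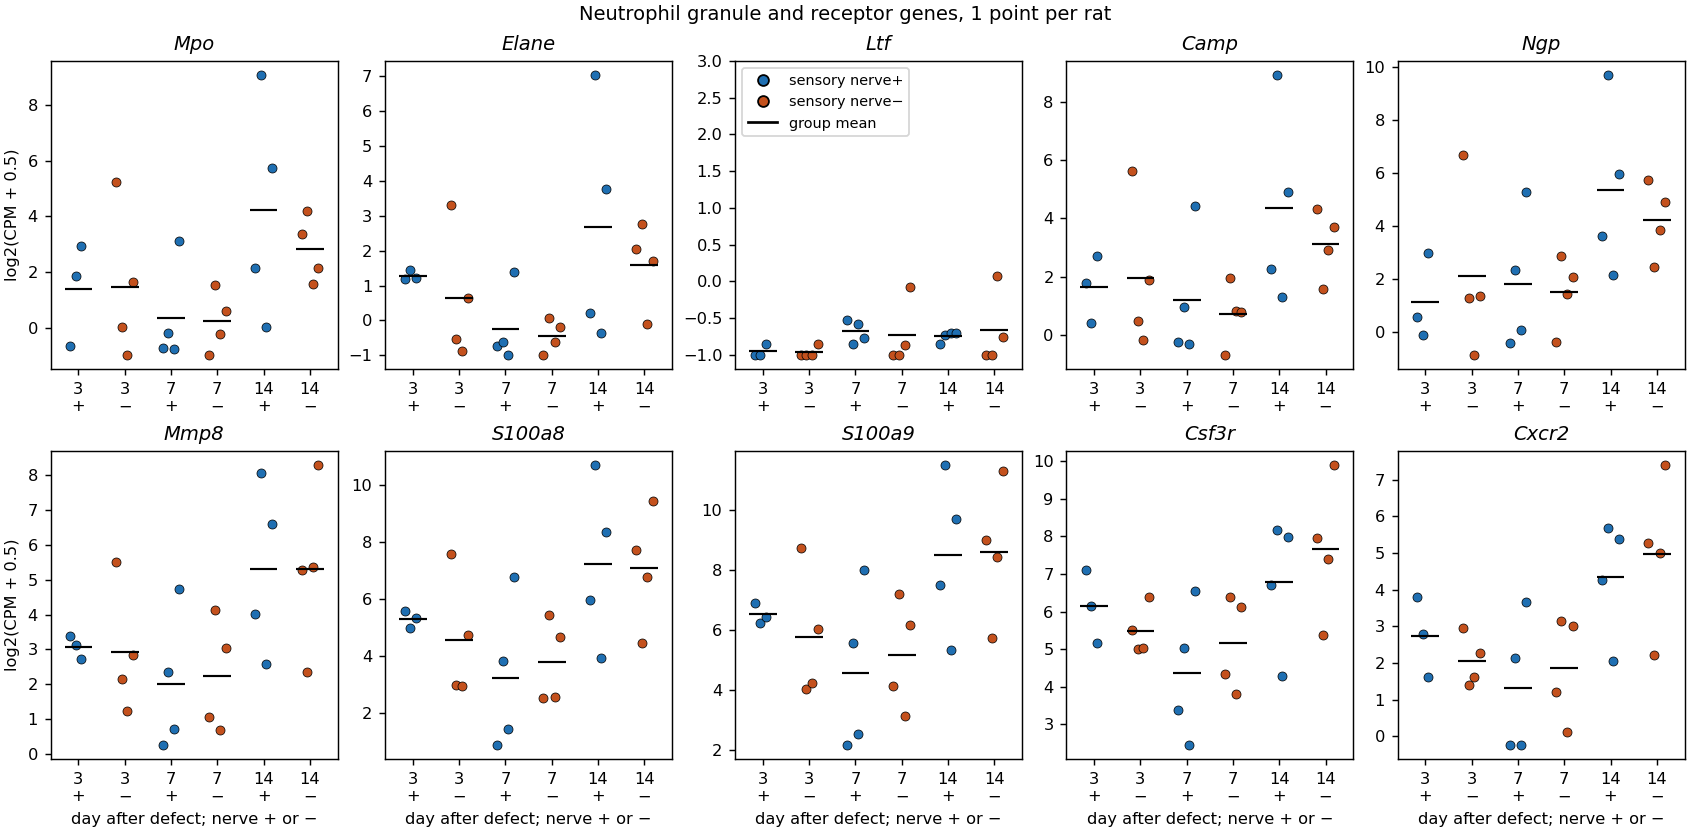
Level of each of the 10 genes, as log2 of CPM plus 0.5, in the 23 rats (1 point per rat, line at the group mean), by day after the defect and nerve state, + for sensory nerve+ and − for sensory nerve−. Single rats stand far above their groups for the granule genes, day 14 holds the highest points, and Ltf stays near the bottom of its scale in every rat.

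Rats of the same group differed from each other in these genes more than in most others. The within-group SD on the log2 scale was 2.37 for Mpo, 1.8 for Elane, 2.18 for Camp, 2.43 for Ngp, 1.98 for Mmp8, 2.19 for S100a8, 2.23 for S100a9, 1.5 for Csf3r and 1.59 for Cxcr2, against a median of 0.364 over all genes with a mean of at least 1 CPM. The 9 values exceeded those of 96.8% to 99.8% of these genes. Some genes of other cell types spread as widely, such as Slc4a1 (2.79), Krt5 (2.54), Acta1 (2.25) and Bglap (2.14). Others, such as Cd68 (0.759) and Col1a1 (0.699), spread less. The group comparisons below are read against this spread.

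The effect of transection was compared first at each day, with the quasi-likelihood test of edgeR and Benjamini-Hochberg adjustment over all genes tested. None of the tested members was called at an adjusted p under 0.05 at any day, and none had an unadjusted p under 0.05. Across all genes, 0.0% were called at each of the 3 days, and 0.83%, 1.46% and 9.32% had an unadjusted p under 0.05 at days 3, 7 and 14. The groups overlapped for every member at every day, while 1.61%, 0.754% and 3.37% of all genes did not overlap. DESeq2 called 0, 1 and 95 genes at the 3 days (0.0%, 0.0068% and 0.65%) and none of the members, although it gave some of them no adjusted p.

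At day 3 the log2 fold changes, given as sensory nerve− over sensory nerve+, were 1.48 (SE 2.0) for Mpo, 0.39 (SE 1.44) for Elane, 1.99 (SE 1.68) for Camp and 3.1 (SE 2.2) for Ngp. The receptors lay on the other side of 0, at −0.77 (SE 0.512) for Csf3r and −0.9 (SE 0.626) for Cxcr2. Adjusted p was 1.0 for all 9 tested members in edgeR. The median over the 9 members was 0.5 and that over all genes −0.01. Without rat 1 of sensory nerve− all 9 values were negative, Mpo at −1.76, Ngp at −1.11, S100a8 at −1.55 and S100a9 at −1.5, and none was called.

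At day 7 Mpo, Elane and Ltf did not pass the filter on low counts and 7 members were tested. Camp was at −1.95 (SE 1.44) and Ngp at −1.73 (SE 1.45), while Csf3r was at 0.4 (SE 0.924) and Cxcr2 at 0.14 (SE 1.2). Adjusted p in edgeR was 1.0 for all 7. Mmp8, S100a8 and S100a9 lay between −0.69 and −0.24.

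At day 14 the early granule genes and the receptors again lay on opposite sides of 0, in the reverse order to day 3. Mpo was at −4.12 (SE 1.81), Elane at −3.44 (SE 1.7), Camp at −3.64 (SE 1.66) and Ngp at −3.16 (SE 1.58), with adjusted p = 0.519 in edgeR for each of the 4. Csf3r and Cxcr2 were both at 1.05, with SEs of 1.01 and 1.05 and edgeR adjusted p of 0.718 and 0.728. Mmp8 (0.02, SE 1.37) and S100a9 (−0.26, SE 1.35) lay near 0, and S100a8 was at −1.03 (SE 1.4). The early granule values turned on 1 rat: without rat 2 of sensory nerve+ they were −1.26 for Mpo, −0.59 for Elane, −0.25 for Camp and −0.09 for Ngp. The receptor values turned on another: without rat 4 of sensory nerve− they were −0.13 for Csf3r and −0.22 for Cxcr2.

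**Figure D2:**
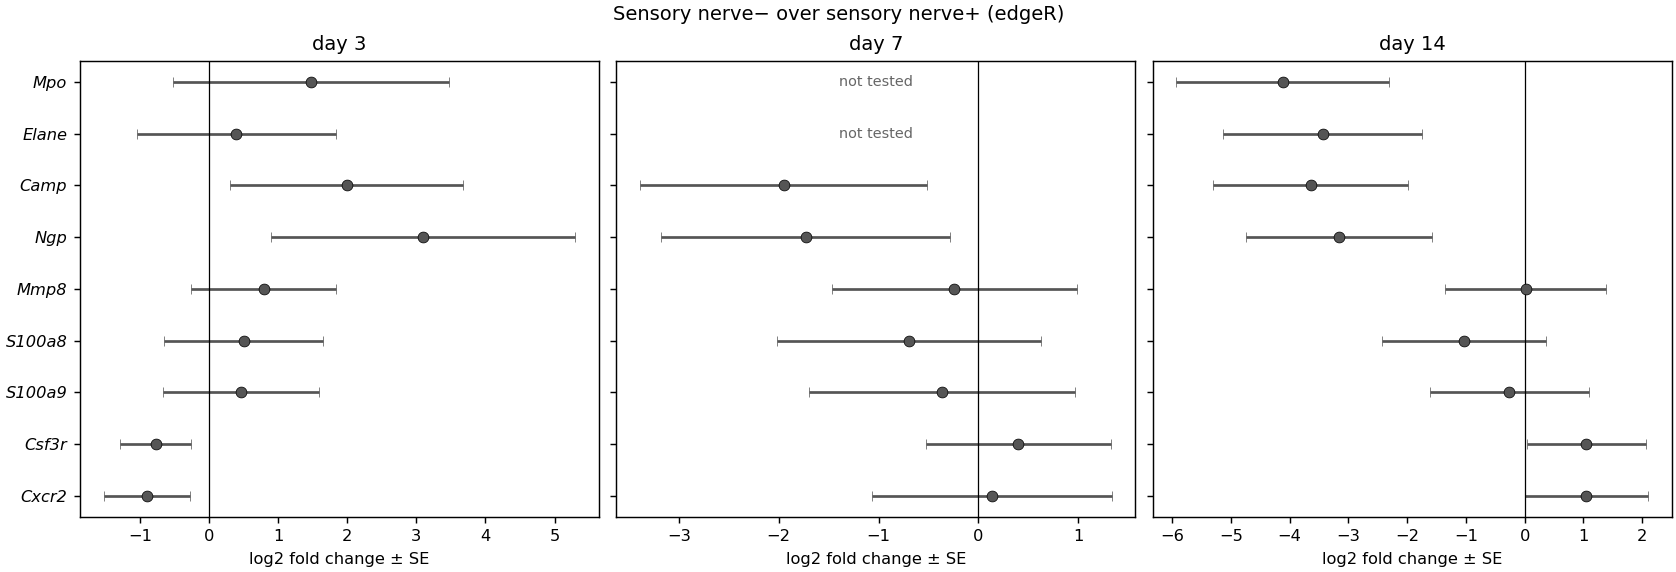
Log2 fold change of sensory nerve− over sensory nerve+ with its SE (edgeR) for the 9 members that could be tested, at days 3, 7 and 14. The 4 early granule genes lie above 0 at day 3 and below 0 at day 14, the receptors do the opposite, and none of the values was called.

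With the 3 days pooled, no member was called, against 0.0% of 15858 genes (5.11% at an unadjusted p under 0.05). The log2 fold changes ran from −1.69 (SE 1.3, Camp) to 0.29 (SE 0.564, Csf3r). Whether the transection difference changed between days was tested by the interaction of nerve and day, which called no gene (3.0% at an unadjusted p under 0.05). The smallest unadjusted p among the members was 0.097, for Ngp, with an adjusted p of 0.998 in edgeR. The opposite signs at days 3 and 14 were thus not distinguished from the spread between rats.

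The course of healing in sensory nerve+ rats was compared between days. Between days 3 and 7 none of the 9 tested members was called, against 6.67% of all genes, and their log2 fold changes (day 3 over day 7) ran from −1.91 (SE 1.78, Ngp) to 1.78 (SE 1.3, Elane). All 9 were lower at day 7 than at day 14 in estimate, from −6.22 (SE 2.37, Mpo) to −2.28 (SE 1.06, Csf3r), and 4 of them, Mpo, Elane, Mmp8 and Cxcr2, had an unadjusted p under 0.05, as did 9.42% of all genes. None was called after adjustment (edgeR adjusted p 0.495 to 0.554), and only 0.0202% of all genes were.

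Day 3 against day 14 in sensory nerve+ rats shares its groups with both of these comparisons. The 9 values were again negative, from −6.26 (SE 2.31, Ngp) to −1.06 (SE 0.878, Csf3r), with a median of −3.73 against −0.003 over all genes. Camp, Ngp, Mmp8, S100a8 and S100a9 had an unadjusted p under 0.05, as did 28.2% of all genes. None was called in edgeR (adjusted p 0.13 to 0.468), where 5.78% of all genes were. DESeq2 called 5 of the 9, Mpo, Elane, Mmp8, S100a8 and S100a9, gave no adjusted p for Camp and Ngp, and called 22.4% of all genes. Between the groups every member overlapped except Ltf, which was not tested, and 24.5% of all genes did not overlap.

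Between days 3 and 7 of sensory nerve− rats none of the 8 tested members was called, against 10.5% of all genes. Mpo, Camp and Ngp were at 3.38 (SE 1.86), 3.14 (SE 1.56) and 2.98 (SE 1.78) for day 3 over day 7, and Csf3r and Cxcr2 at 0.06 (SE 0.606) and −0.16 (SE 0.778). From day 7 to day 14 all 8 tested members were at an unadjusted p under 0.05, as were 23.5% of all genes. Their log2 fold changes (day 7 over day 14) were −3.18 (SE 1.07) for Mpo, −2.8 (SE 0.893) for Camp, −2.96 (SE 0.937) for Ngp, −3.86 (SE 1.35) for Mmp8, −3.73 (SE 1.13) for S100a8, −3.82 (SE 1.29) for S100a9, −2.94 (SE 0.988) for Csf3r and −3.74 (SE 1.17) for Cxcr2. None was called in edgeR (adjusted p 0.127 to 0.154), where 0.0138% of all genes were, while DESeq2 called all 8 and 13.8% of all genes. For Mpo every day 14 rat was above every day 7 rat, and 12.3% of all genes did not overlap. The day 7 rats were in a table of their own, so for this comparison and for day 3 against day 7 the table and the day cannot be told apart.

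Between days 3 and 14 of sensory nerve− rats, both groups in the same table, the 2 receptors were called and the other 7 tested members were not. Csf3r rose from 47.9 ± 24.0 to 353 ± 411 CPM and Cxcr2 from 4.06 ± 2.32 to 60.5 ± 73.5 CPM (mean ± SD, n = 4 each). Their log2 fold changes (day 3 over day 14) were −2.82 (SE 0.864) and −3.85 (SE 1.01), with adjusted p of 0.0481 and 0.0291 in edgeR. Rat 2 of day 14, at 40.75 CPM of Csf3r and 4.17 CPM of Cxcr2, lay within the day 3 range for both. Mpo (0.24, SE 1.52), Elane (−0.29, SE 1.33), Camp (0.39, SE 1.35) and Ngp (0.07, SE 1.59) were near 0 with wide errors, and Mmp8, S100a8 and S100a9 lay between −2.74 and −2.13 and were not called. The early granule values turned on 1 rat: without rat 1 of day 3 they were −3.02 for Mpo, −2.9 for Elane, −2.81 for Camp and −4.22 for Ngp, beside −2.86 for Csf3r and −4.35 for Cxcr2, and no member was called. The difference between receptors and early granule genes was not tested.

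Both calls were close to the threshold. In the same comparison 23.5% of all genes were called, 8.89% of all genes as lower at day 3, so 2 of 9 members is near the background. The groups overlapped for all members, as they did for all but 26.7% of genes. DESeq2 called Mmp8 beside the receptors, 3 of 9 against 33.6% of all genes. In edgeR, Cxcr2 alone was called with library total scaling or without a filter on low counts, and neither receptor with the replicate number as a block. Csf3r was called without 1 of the 8 rats (rat 2 of day 14) and not without any of the other 7, and Cxcr2 was called without rat 1, 2 or 3 of day 14 only. The edgeR adjusted p over these fits ran from 0.0128 to 0.117 for Csf3r and from 0.00684 to 0.0794 for Cxcr2. Without rat 4 of day 14, the highest rat for both receptors, the log2 fold changes were −1.64 for Csf3r and −2.58 for Cxcr2. The erythroid markers were also higher at day 14 in these rats, with a median log2 fold change of −2.67 (day 3 over day 14), all 12 negative and none called, and held 0.263% to 50.3% of the day 14 libraries against 2.06% to 12.5% at day 3. Markers of B and plasma cells had a median of −2.69, with all 5 tested negative and none called, and those of mast cells a median of −3.7, with 2 of 4 tested called as lower at day 3, Cma1 (−5.44, SE 1.19, edgeR adjusted p = 0.0168) and Cpa3 (−5.32, SE 1.18, edgeR adjusted p = 0.0178). Rats 3 and 4 of day 14 had TMM factors of 0.496 and 0.689, against 0.823 to 1.17 in the other 6 rats of this comparison. The part of these markers and factors in the receptor result was not tested.

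**Figure D3:**
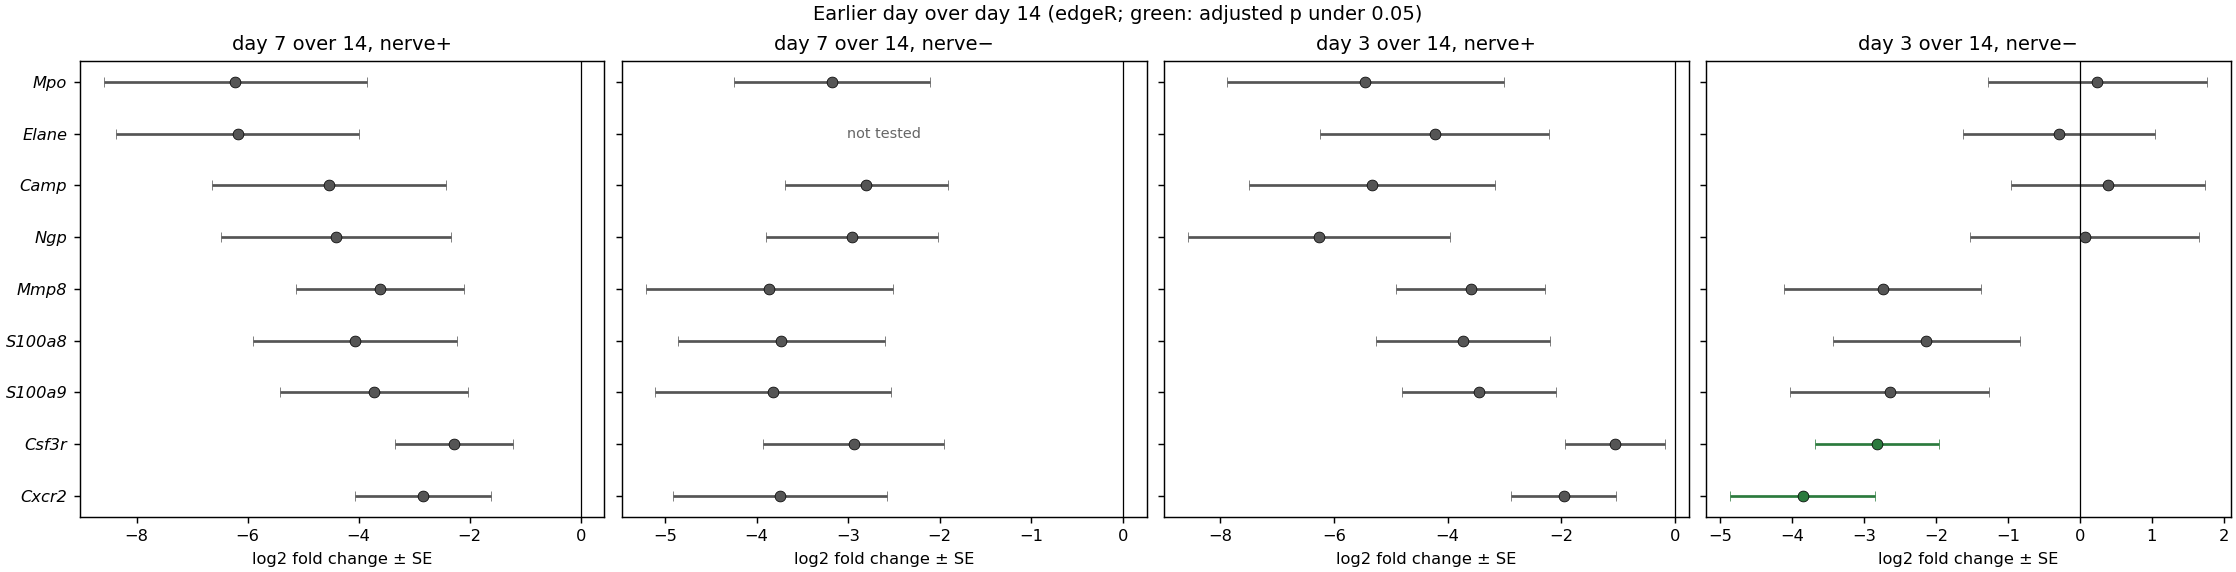
Log2 fold change of the earlier day over day 14 with its SE (edgeR) for the 9 members that could be tested, for days 7 and 3 and both nerve states (axes differ between panels). Values lie below 0 in the first 3 panels, and in the last, day 3 over day 14 in sensory nerve− rats, the called receptors lie below 0 and the early granule genes near 0, a position that turned on rat 1 of day 3, without which Mpo was at −3.02 and Ngp at −4.22.

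Early granule and receptor transcripts were then set against each other within each rat, as the log2 ratio of the summed CPM of Mpo, Elane, Ltf, Camp and Ngp to that of Csf3r and Cxcr2. In the receptor sum Csf3r outweighed Cxcr2, at a median count ratio of 9.78. The early to receptor ratio was compared between rats only, because the genes differ in length. It was −4.69, −3.56 and −0.75 at day 3, then −3.4, −2.44, −2.24 and −0.59 at day 7, then −2.56, 2.54, −1.73 and −0.92 at day 14 in sensory nerve+ rats. With the nerve transected it was 1.9, −3.24, −6.23 and −3.27 at day 3, then −5.76, −2.81, −1.82 and −3.48 at day 7, then −1.74, −0.52, −3.04 and −4.54 at day 14. The highest ratios were those of rat 2 of sensory nerve+ day 14 and rat 1 of sensory nerve− day 3, and the groups overlapped throughout. The group medians lay between −3.56 and −1.32, and no difference between them was tested.

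A pair of day 14 rats showed the contrast in counts. Rat 2 of sensory nerve+ ranked first of 23 in summed early granule level and second in receptor level, with 10821 counts of Mpo and 1020 of Cxcr2. Rat 4 of sensory nerve− ranked first in receptor level and sixth in early granule level, with 42 counts of Mpo and 1823 of Cxcr2. Rat 1 of sensory nerve− day 3 ranked second in early granule level and only 13th in receptor level. The Mpo to Cxcr2 count ratio spanned 0.023 to 10.6, a 461-fold range, over the 18 rats with more than 3 counts of both, against a 5.64-fold range of the Csf3r to Cxcr2 ratio over 23 rats.

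**Figure D4:**
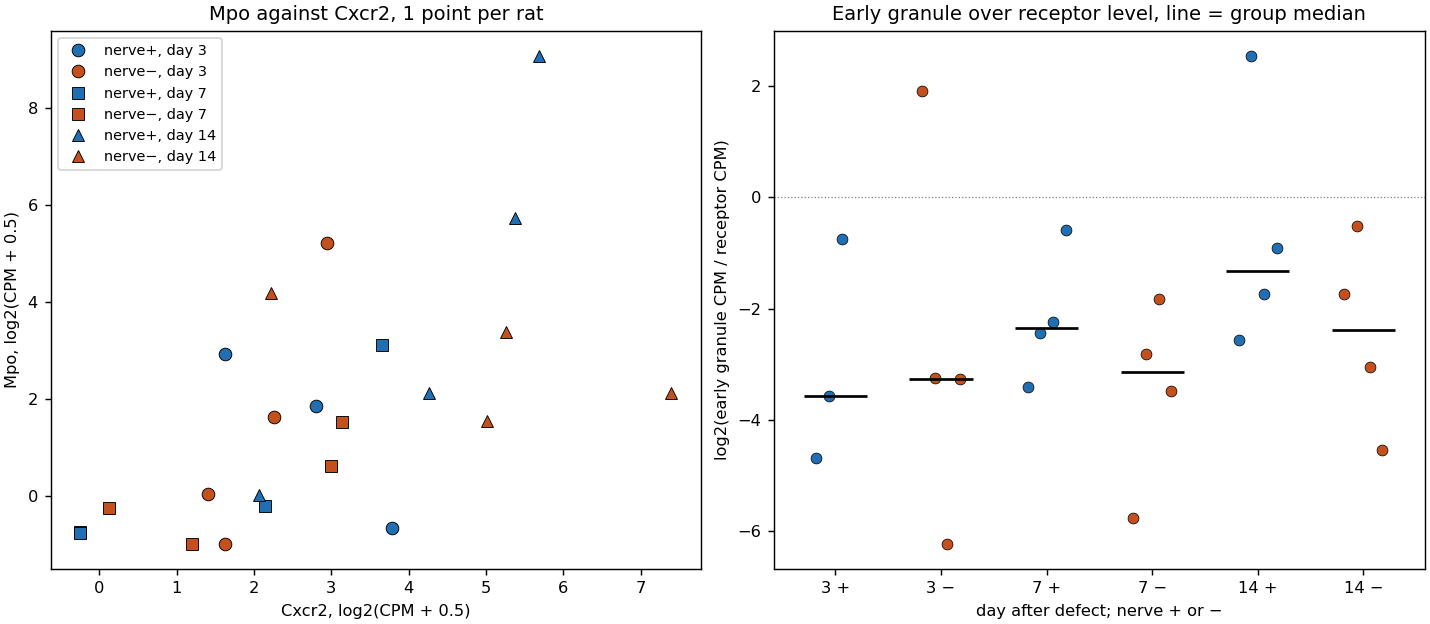
Left, Mpo against Cxcr2, both as log2 of CPM plus 0.5, 1 point per rat, with shape for the day and colour for the nerve state. Right, log2 ratio of summed early granule CPM to summed receptor CPM by group, with a line at the group median. The points on the left scatter widely. There rat 2 of sensory nerve+ day 14 lies at the top and rat 4 of sensory nerve− day 14 at the far right. On the right, rat 2 of sensory nerve+ day 14 and rat 1 of sensory nerve− day 3 lie highest. The line at 0 is no boundary, because the genes differ in length.

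How the members varied together between rats was measured on log2 CPM after the mean of each group was subtracted, over 23 rats, with permutation of rats within groups (two-sided, 100000 permutations, 1e-05 the smallest p they can give) and adjustment over the 45 pairs. Of these, 32 pairs were called, all of them positive, and none of the 9 pairs with Ltf was among them. Pairs of other genes were not tested, so the share called over all genes is not known. Over the 14335 genes with a mean of at least 1 CPM, Csf3r ranked 2097 by r with Mpo (r = 0.436). S100a8 and S100a9 were the closest pair (r = 0.99, rho = 0.981, permutation p = 1e-05, adjusted p = 3.46e-05, and r = 0.989 without the 2 rats farthest from the median). Camp and Ngp (r = 0.975, rho = 0.945) and Csf3r and Cxcr2 (r = 0.971, rho = 0.983) were as close in p, with permutation p = 1e-05 and adjusted p = 3.46e-05 each, and r without the 2 farthest rats was 0.962 in both pairs.

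Pearson coefficients were then grouped by sets of genes. Mmp8, S100a8 and S100a9 were joined for description and are not a stage. Among the 4 detected early granule genes r was 0.806 to 0.975, between these and Mmp8, S100a8 or S100a9 it was 0.663 to 0.914, and between Mmp8, S100a8 or S100a9 and the receptors 0.854 to 0.927. All 24 of these pairs were called. Between early granule genes and receptors r was 0.428 to 0.651, and 4 of 8 pairs were called, those of Camp and Ngp. Mpo and Cxcr2 gave r = 0.428 and rho = 0.405 (permutation p = 0.0538 and 0.0755, adjusted p = 0.0712 and 0.0971), and r = 0.356 without the 2 farthest rats. Elane with the receptors differed by measure: with Cxcr2 r = 0.457 (permutation p = 0.0428, adjusted p = 0.0584) and rho = 0.573 (permutation p = 0.0129, adjusted p = 0.0187). By rho, Camp with Cxcr2 (0.72) and Ngp with Cxcr2 (0.705) exceeded Mpo with Mmp8 (0.55) and Mpo with S100a9 (0.611). The differences between coefficients were not tested.

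**Figure D5:**
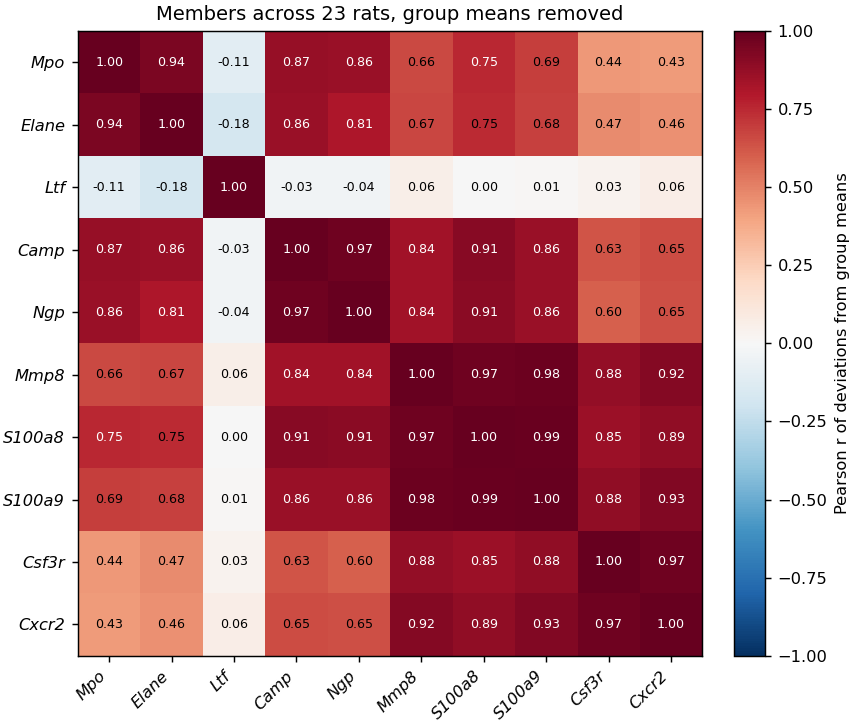
Pearson r between members over 23 rats after subtraction of group means, colour and number in each cell. High values join the detected early granule genes with each other, and Mmp8, S100a8 and S100a9 with the receptors. These sets are not separate, as Camp and Ngp reach 0.914 and 0.906 with S100a8. The cells between Mpo or Elane and the receptors are paler, and Ltf stands apart near 0.

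Genes whose levels followed Mpo and Cxcr2 most closely were listed by r of the same deviations, over all genes with a mean of at least 1 CPM and 23 rats, as a description with no test. For Mpo they were Ctsg (r = 0.984, rho = 0.982), RatNP-3b (r = 0.967, rho = 0.967), Np4 (r = 0.955, rho = 0.955), Defa5 (r = 0.949, rho = 0.953) and Ms4a2 (r = 0.949, rho = 0.896). Ctsg encodes cathepsin G, and RatNP-3b, Np4 and Defa5 are defensin genes of similar sequence, between which shared reads may have been split. Elane ranked sixth and Cxcr2 at 2179 in this order of 14335 genes. For Cxcr2 the closest were Nlrp12 (r = 0.986, rho = 0.98), Ifit1bl (r = 0.984, rho = 0.99), Oas1k (r = 0.981, rho = 0.975), Csf3r (r = 0.971, rho = 0.983) and Prok2 (r = 0.963, rho = 0.948). S100a9 ranked 14th, Mmp8 18th and Mpo at 1889 of the same 14335 genes by likeness to Cxcr2.

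Other genes of the neutrophil pathway were counted by list. Of 8 other azurophil granule and promyelocyte genes, 7 were in the tables, 3 to 7 were tested per comparison, and none was called in any comparison. Their median log2 fold change at day 14 was −1.81 for sensory nerve− over sensory nerve+, with all 6 tested members negative, against 0.03 over all genes. Without rat 2 of sensory nerve+ it was −0.026, with 3 of 6 negative. Of 12 other specific and gelatinase granule genes 11 were tested in each comparison of 2 groups. Slpi, a secreted protease inhibitor, was higher at day 3 than at day 7 of sensory nerve− rats (2.85, SE 0.711, edgeR adjusted p = 0.0428), 1 of 11 against 10.5% of all genes. The call was lost without any 1 of the 8 rats (edgeR adjusted p 0.0545 to 0.113). Of the 6 tested markers of oral and dental epithelium 4 were called higher in the same comparison, Krt5 at 6.72 (SE 1.4), Krt14 at 6.69 (SE 1.43), Krt6a at 4.51 (SE 1.17) and Cdh1 at 3.64 (SE 0.947), and their part in the Slpi result was not tested. Between days 3 and 14 of the same nerve state, Chi3l1 was lower at day 3 (−2.95, SE 0.699) and the integrin gene Itgam higher (1.36, SE 0.322), both at an adjusted p of 0.0215 in edgeR, 2 of 11 against 23.5% of all genes. With 1 rat left out Chi3l1 was called in 6 of 8 fits, not without rat 1 or 2 of day 3, and Itgam in 5 of 8, not without rat 1 or 4 of day 3 or rat 1 of day 14. In sensory nerve− rats the summed monocyte and macrophage markers had a median of 1735 CPM at day 3 (1070 to 2470) and 1490 CPM at day 14 (742 to 1710). The part of these markers in the Itgam result was not tested.

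Of 12 other mature neutrophil genes 11 were tested between days 3 and 14 of sensory nerve− rats. Those called as lower at day 3 included Mmp25, a membrane-bound metalloproteinase (4.52 ± 1.33 against 28.8 ± 27.6 CPM, log2 fold change −2.62, SE 0.616), and Fpr2, a formyl peptide receptor (1.54 ± 1.87 against 14.6 ± 5.82 CPM, −3.22, SE 0.778, mean ± SD, n = 4). Their edgeR adjusted p was 0.021 and 0.0225. Mmp25 was called in 6 of 8 fits with 1 rat left out, not without rat 2 or 4 of day 3, and Fpr2 in 4 of 8, not without rat 2 or 4 of day 3 or rat 3 or 4 of day 14. The share of all genes called as lower was 8.89% as above, and the list's median was −1.81 against 0.05 over all genes. Not all of the list were lower at day 3. The means of Lilrb3 (24.5 ± 28.8 against 12.1 ± 6.37 CPM) and Trem1 (25.8 ± 12.4 against 19.6 ± 14.9 CPM) were higher there. With the nerve intact none of the list was called in any comparison, with Fpr2 at −3.76 (SE 1.24, edgeR adjusted p = 0.105) for day 3 over day 14.

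A further list held 12 chemokines, cytokines and growth factors, not all of which draw neutrophils. Of these, 9 were tested in each comparison of day 3 with day 7. In each nerve state 3 were called, against 6.67% of all genes in sensory nerve+ and 10.5% in sensory nerve− rats. Cxcl1, Cxcl2 and Cxcl3, ligands of Cxcr2, were higher at day 3 than at day 7 in both nerve states, in sensory nerve+ rats by 5.14 (SE 1.06), 5.06 (SE 1.16) and 5.09 (SE 1.15) on the log2 scale and in sensory nerve− rats by 3.33 (SE 0.73), 4.41 (SE 1.06) and 4.34 (SE 0.905). The edgeR adjusted p of these 6 values was 0.0255 to 0.0492. Day 7 means were low, at 0.25, 0.76 and 0.87 CPM in sensory nerve+ and 0.47, 0.53 and 0.53 CPM in sensory nerve− rats. Day 3 levels (mean ± SD) were 9.61 ± 11.8, 24.8 ± 29.9 and 28.9 ± 35.1 CPM in sensory nerve+ rats. In sensory nerve− rats they were 4.79 ± 3.47, 11.35 ± 11.63 and 10.86 ± 11.06 CPM. Krt5, Krt14, Krt6a and Cdh1 were also called higher at day 3 in sensory nerve− rats. In sensory nerve+ rats the epithelial marker Dsg3 was called higher at day 3 (2.04, SE 0.355, edgeR adjusted p = 0.022). The median of the epithelial list there was 1.93, with Krt10 at −0.28. The part of these epithelial markers in the ligand values was not tested. Most of the ligand calls were lost with a rat left out. With 1 left out each gene was called in 1 of 7 fits in sensory nerve+ rats, the one without rat 2 of day 3, and in sensory nerve− rats Cxcl1 and Cxcl2 were called in 1 of 8 and Cxcl3 in 2 of 8. All of these fits kept the direction, from 2.81 to 5.73 on the log2 scale. Without rat 1 of day 3 of sensory nerve− rats 0 genes were called in all, and without rat 3 of day 7 only 3. Cxcl2 was also higher at day 3 than at day 14 of sensory nerve+ rats (24.8 ± 29.9, n = 3, against 0.654 ± 0.431 CPM, n = 4, mean ± SD, adjusted p = 0.0418 in edgeR). It was called in 2 of 7 fits with 1 rat left out, those without rat 2 of either day, and 0 genes in all were called without rat 3 of day 3 or rat 3 or 4 of day 14. Il1b, which encodes the cytokine interleukin-1β, had a log2 fold change of −2.7 (SE 0.761, edgeR adjusted p = 0.037) for day 3 over day 14 of sensory nerve− rats and was called in 2 of 8 fits with 1 rat left out, those without rat 4 of day 3 or rat 2 of day 14. In the same comparison Ppbp (−2.92, SE 1.01, edgeR adjusted p = 0.0694) and Pf4 (−2.77, SE 0.895, edgeR adjusted p = 0.0568) were not called, and Cxcl1, Cxcl2 and Cxcl3 lay at 1.59, 1.75 and 2.21 and were not called.

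Markers of other cells moved with the early granule genes in rat 2 of sensory nerve+ day 14. In this rat, eosinophil markers held 0.0738% of the library against a group median of 0.00282%, mast cell markers 0.0466% against 0.0046%, and B and plasma cell markers 0.0777% against 0.0175%. It had the lowest share of erythroid markers (1.4% against a median of 12.1%) and of muscle markers (0.0269% against 1.17%) in its group. Ms4a2, among the genes closest to Mpo, is a member of the mast cell list. Rat 1 of sensory nerve− day 3 likewise held the highest eosinophil share of its group, 0.00726% against a median of 0.000632%, whereas rat 4 of sensory nerve− day 14 was at 0.00222% against 0.00132%. The part of these cells in the granule levels was not tested.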

How the data were processed

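Healing tissue of 23 rats was sequenced on the DNBSEQ platform. According to the study's methods and the submitters' processing notes, the authors filtered the reads, aligned them with HISAT and Bowtie2 to mRatBN7.2 and deposited expected counts for each gene, an estimate that divides ambiguous reads among the genes they match. These expected counts were rounded to whole numbers before testing. A table of cultured mouse macrophages was not used.

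In R 4.3.3, edgeR 4.0.16 scaled the counts by TMM, removed low genes with filterByExpr and ran its quasi-likelihood test, each comparison on its own groups, with Benjamini-Hochberg adjusted p under 0.05 over all genes tested. Pooled and interaction tests used all 23 rats. Standard errors came from the F statistic. Levels on a log scale are log2 of CPM plus 0.5. Nothing in the labels names litters or surgery days, so p-values measure the spread between these rats. The tests were tried on simulated data, in which genes varied independently and genes of low counts were not changed. The power to detect changes in these members was not measured.

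All 10 members were named in every comparison, and from each further list at most the 3 genes of smallest p, apart from some named for their direction or as cell markers. A gene that this rule takes is not reported here. The members and lists were chosen with earlier results of these data known. Alternatives were DESeq2 1.42.0, RLE size factors, library total scaling, no or a stricter filter, a replicate block, all 23 rats in 1 fit, another pseudocount for the correlations and each rat left out in turn. Correlations and figures used Python 3.11.15 with numpy 2.4.6, pandas 2.3.3, scipy 1.17.1 and matplotlib 3.10.9.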

Additional observations from a re-analysis of the deposited data

Results flagged for a closer look

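In 21 of 50 sets of 4 rats, 1 gene in 1 group each, the highest rat stood apart from the other 3 by Dixon's criterion. The criterion was applied to CPM and not to log levels. Its chance rate of about 1 in 20 holds for normally distributed values, which these CPM need not be. The 10 genes are also not independent of each other. The count of 21 therefore does not measure an excess over chance. Rat 4 of sensory nerve+ day 7 stood apart for Mpo (8.22 CPM), Elane (2.12 CPM), Camp (21.3 CPM), Ngp (38.0 CPM), Mmp8 (26.1 CPM) and S100a8 (109.5 CPM). Rat 2 of sensory nerve+ day 14 stood apart for the 4 early granule genes Mpo (541 CPM), Elane (131 CPM), Camp (483 CPM) and Ngp (819 CPM), and not for Mmp8, the calprotectin genes or the receptors. Rat 1 of sensory nerve− day 3 stood apart for Mpo (36.8 CPM), Elane (9.40 CPM), Camp (49.4 CPM), Ngp (100.5 CPM), Mmp8 (45.4 CPM), S100a8 (190.4 CPM) and S100a9 (429 CPM), and not for the receptors. Rat 4 of sensory nerve− day 14 stood apart for Mmp8 (313 CPM) alone. Ltf met the criterion in rat 4 of sensory nerve− day 3 (0.0535 CPM), rat 4 of sensory nerve− day 7 (0.45 CPM) and rat 3 of sensory nerve− day 14 (0.552 CPM), each from fewer than 8 counts. Csf3r and Cxcr2 did not meet it in any group.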

How the results depend on the processing

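No alternative called a member for transection at any day. For day 3 against day 14, DESeq2 called 5 members in sensory nerve+ rats in place of 0, and for day 7 against day 14 it called 8 in sensory nerve− rats in place of 0. For day 3 against day 14 of sensory nerve− rats, 2 members in the analysis as reported, the count was 1 with library total scaling, 1 without a filter and 0 with the replicate block, and 0 to 2 with 1 rat left out. Correlated pairs numbered 32 to 36. The cause of these changes was not tested.

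Rats of different groups share replicate numbers, but their deviations from group means did not pair: in none of the 9 comparisons was every same-numbered correlation over 0.1 (range −0.392 to 0.466). The replicate block turned signs without calling a member. Sensory nerve− over sensory nerve+ became, at day 3, −2.02 for Mpo, −2.08 for Elane, −0.29 for Mmp8, −1.05 for S100a8 and −1.06 for S100a9; at day 7, 0.32 for Mmp8, 0.78 for S100a8 and 0.702 for S100a9; at day 14, 0.83 for S100a8 and 0.98 for S100a9; and pooled, 0.12 for S100a9. Under the block, day 3 over day 7 became 2.23 for Camp, 1.02 for Ngp and 2.26 for Mmp8 in sensory nerve+ rats and −0.76 for Ngp and 0.32 for Cxcr2 in sensory nerve− rats, and day 3 over day 14 became −1.99 for Mpo, −1.45 for Camp and −2.39 for Ngp in sensory nerve− rats. Scaling by library total turned Mmp8 to 0.0275 at day 7, −0.73 at day 14 and −0.0203 pooled for transection, and to 0.26 for day 3 over day 7 of sensory nerve+ rats, where it was 0.0204 without a filter and 0.0193 with all rats in 1 fit.

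With 1 rat left out at a time, 41 log2 fold changes took both signs. For transection at day 3 the ranges were −1.76 to 2.52 (Mpo), −2.18 to 0.799 (Elane), −1.14 to 2.81 (Camp), −1.11 to 5.17 (Ngp), −0.98 to 1.15 (Mmp8), −1.55 to 0.86 (S100a8) and −1.5 to 0.83 (S100a9). At day 7 they were −2.71 to 1.12 (Camp), −2.37 to 0.89 (Ngp), −1.22 to 1.72 (Mmp8), −1.41 to 1.82 (S100a8), −1.26 to 1.74 (S100a9), −0.0391 to 1.59 (Csf3r) and −0.32 to 1.61 (Cxcr2). At day 14 they were −1.77 to 1.26 (Mmp8), −2.18 to 0.89 (S100a8), −1.71 to 1.21 (S100a9), −0.13 to 1.42 (Csf3r) and −0.22 to 1.44 (Cxcr2), and pooled −2.13 to 0.14 (Ngp), −0.38 to 0.74 (Mmp8), −1.04 to 0.29 (S100a8), −0.61 to 0.55 (S100a9), −0.14 to 0.61 (Csf3r) and −0.31 to 0.56 (Cxcr2). For day 3 over day 7 they were −0.45 to 1.25 (Mpo), −1.66 to 2.15 (Camp), −3.97 to 0.63 (Ngp), −0.42 to 1.85 (Mmp8), −0.11 to 2.73 (S100a8) and −0.17 to 2.24 (S100a9) in sensory nerve+ rats, and −1.24 to 3.65 (Ngp), −0.72 to 2.06 (Mmp8), −0.51 to 2.28 (S100a8), −0.86 to 2.03 (S100a9), −0.35 to 0.52 (Csf3r) and −0.58 to 0.32 (Cxcr2) in sensory nerve− rats. For day 3 over day 14 of sensory nerve− rats they were −3.02 to 0.89 (Mpo), −2.9 to 0.24 (Elane), −2.81 to 0.93 (Camp) and −4.22 to 0.75 (Ngp).

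Genes called over all genes also moved with the setting. With 1 rat left out they ranged from 254 to 1547 for day 3 against day 7 and from 0 to 3133 for day 3 against day 14 of sensory nerve+ rats, and from 1620 to 4346 for day 3 against day 14 of sensory nerve− rats, where library total scaling gave 1184 and the reported analysis 3396. In sensory nerve− rats they ranged from 0 to 1359 for day 3 against day 7 and from 0 to 814 for day 7 against day 14, and in sensory nerve+ rats from 0 to 28 for day 7 against day 14. Low counts left Ltf untested in every comparison, Mpo and Elane in that of nerve states at day 7, and Elane in both comparisons with day 7 of sensory nerve− rats.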
